A study of Mus musculus with 2 samples.

Results

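The clustered protocadherin genes of the mouse lie in the alpha, beta and gamma clusters of chromosome 18, and were taken here as all RefSeq protein-coding genes there whose symbols follow the Pcdha, Pcdhb, Pcdhga, Pcdhgb and Pcdhgc pattern. The pattern found 57 genes among 21887 protein-coding genes, 14 in alpha, 22 in beta and 21 in gamma. The occupancy of the histone deacetylases Hdac1 and Hdac2 was read from islands, stretches that the authors' caller found enriched in reads over background, over the clusters and 100 kb on each side, which is chr18:36830285-37941873 of mm10 (1111.6 kb). This locus held 15 of the 30182 Hdac1 islands and 14 of the 20307 Hdac2 islands. Islands were counted in place of genes, because genes of the alpha and gamma clusters share their spans.

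The study immunoprecipitated chromatin from nephron progenitor cells, fetal kidney cells from which nephron epithelium forms, isolated from wild-type embryos at E16.5 and kept in culture before fixation. The Hdac1 and the Hdac2 antibody were each used for 1 library, and the file labels give 0.5 µg of the Hdac1 antibody and 1 µg of the Hdac2 antibody. Both libraries share genotype, stage and culture, and differ in antibody and in its amount, which cannot be told apart. With 1 library per antibody there is no replicate error and no p between libraries. The 95% Wilson intervals cover counting error only, and the read depth is unknown.

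Clustered protocadherins are cadherin-like adhesion proteins of the cell surface, best known from neurons, where each cell shows its own mix of them. In the alpha and gamma clusters each gene has its own promoter and a variable exon, which is spliced to constant exons at the end of the cluster that all genes of that cluster share. Most variable genes, called alternate here, are switched on at random in single neurons through CTCF and cohesin, whereas the C-type genes Pcdhac1, Pcdhac2, Pcdhgc3, Pcdhgc4 and Pcdhgc5 are under separate control. The beta genes have a single coding exon and no constant exons. In human Wilms tumour, a tumour of nephron progenitors, long-range epigenetic silencing of these clusters has been described. Hdac1 and Hdac2 are the catalytic subunits of several corepressor complexes, but are also found at active genes.

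Among the starts of the clustered genes, those with an island within 1 kb belonged to C-type genes, and none belonged to an alternate or beta gene. An Hdac1 island lay within 1 kb of the start of 3 of the 57 genes (5.26%, interval 1.81 to 14.4%), all C-type: Pcdhac2, Pcdhgc3 and Pcdhgc4. Over the 17492 protein-coding genes whose strand is annotated, none of them on chromosome 18, 58.9% had one. An Hdac2 island lay within 1 kb of the start of 2 of the 57 genes (3.51%, interval 0.97 to 11.9%), Pcdhgc3 and Pcdhgc5, where 30.0% of those genes had one. None of the 12 alternate alpha, 18 alternate gamma and 22 beta genes had an island of either library there, and a count of 0 of these 52 genes allows a share of up to 5.77% by the limit of 3 counts, or 6.88% by the Wilson interval. In the upper 50% of each list by value, 2 gene starts had Hdac1 and 0 had Hdac2, and with a 5 kb window 4 had Hdac1 and 4 had Hdac2. The starts with Hdac2 in the 5 kb window included that of an alternate gene, Pcdha8, at 4.47 kb from the island. The shares over all genes were not computed for these settings, and 58.9% and 30.0% hold for the full lists and the 1 kb window. The starts of neighbouring genes are close together, so these genes are not independent draws.

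**Figure D1:**
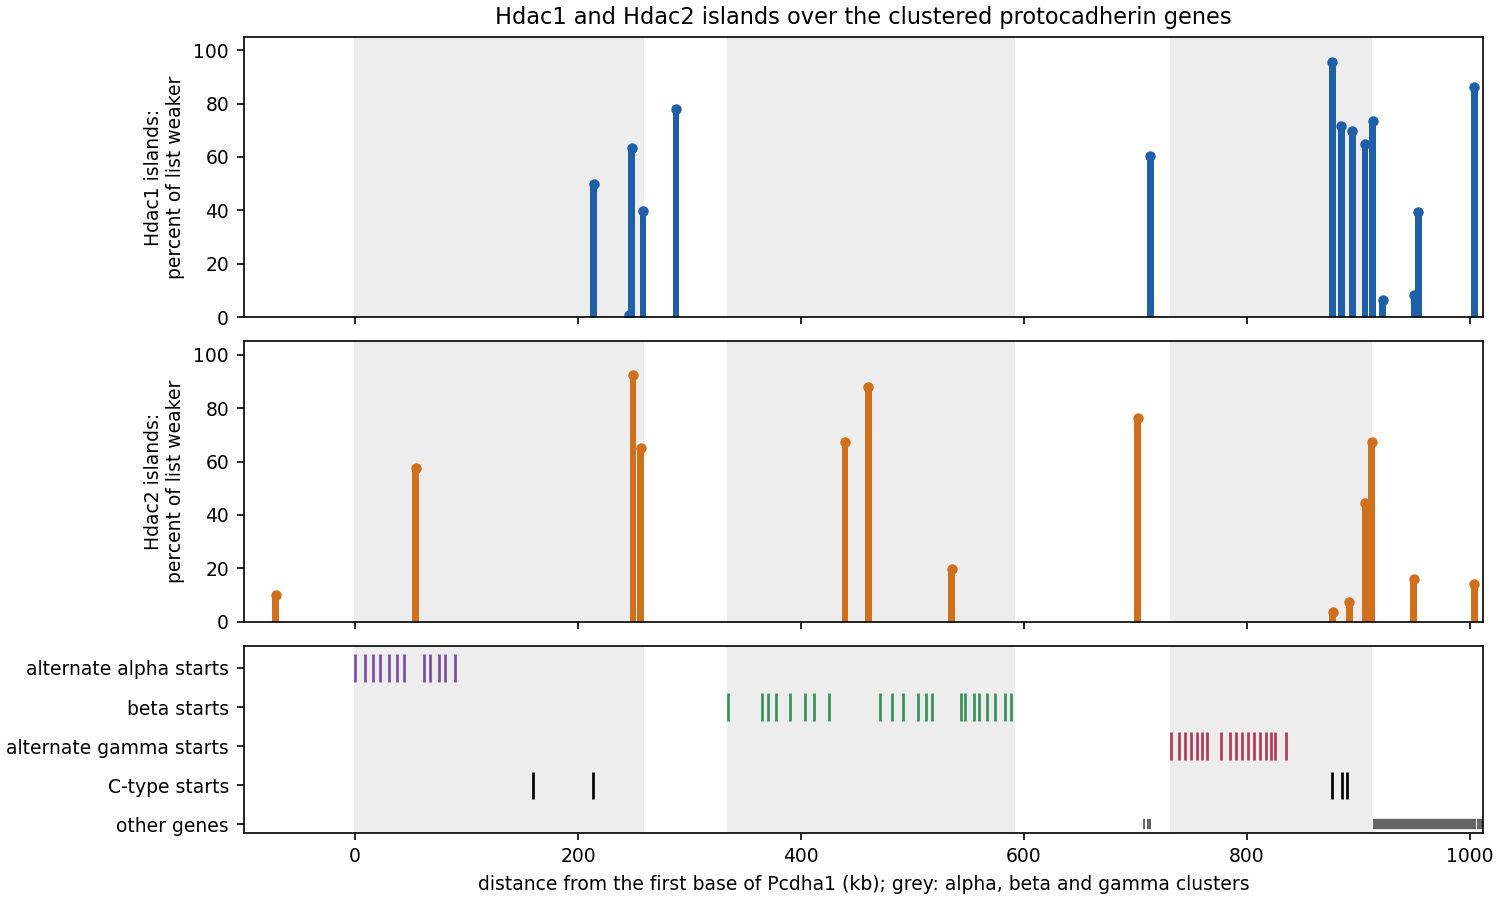
Islands over the protocadherin locus, by distance in kb from the first base of Pcdha1. Bar height is the percent of islands in the same library's list that are weaker by the authors' value, bars have a fixed width for visibility, grey bands are the clusters and the lowest panel marks gene starts. Hdac1 islands (upper panel) are gathered at the ends of the alpha and gamma clusters, and the beta cluster holds 3 Hdac2 islands and no Hdac1 island.

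The strongest Hdac1 island of the locus lay over Pcdhgc3, whose protein is known to inhibit canonical Wnt signalling through Axin1. It measured 4.8 kb (chr18:37804401-37809200) and carried an authors' value of 1.82e-122, which is either a p-value or a q-value. That is lower, and so stronger, than the value of 95.6% of the Hdac1 list. The Hdac2 island at Pcdhgc3 was 1.6 kb wide (chr18:37806201-37807800), lay wholly inside the Hdac1 island and had a value of 0.00122, stronger than 3.7% of the Hdac2 list. The same gene start was therefore near the top of one list and near the bottom of the other. Such values vary with sequencing depth and background. They order the islands of 1 list and do not compare amounts of Hdac1 with amounts of Hdac2.

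Pcdhgc4, a gene required for the survival of neurons, had an Hdac1 island of 2.6 kb over its start (chr18:37813601-37816200, value 4.82e-37, stronger than 71.7% of the list). No Hdac2 island overlapped it, and the nearest began 3.8 kb from its edge. Pcdhgc5, a C-type gene of the postnatal brain, had the islands in the other arrangement. The Hdac2 island (chr18:37820001-37824400, 4.4 kb, value 0.000221) began 455 bp after the gene's first base. The Hdac1 island (chr18:37822401-37827200, 4.8 kb, value 2.75e-34) began 2855 bp after it, outside the 1 kb window, and the islands shared 2.0 kb. Counted from 1 kb before to 3 kb after the start, 4 genes had Hdac1, with Pcdhgc5 added, and 2 had Hdac2.

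In the alpha cluster, the start of Pcdhac2, a C-type gene known from serotonergic neurons, lay under an Hdac1 island of 2.6 kb (chr18:37143001-37145600, value 1.4e-16, stronger than 49.8% of the list). The nearest Hdac2 island was 32.0 kb away from it. Pcdhac1 was the C-type gene with no island near its start in either library: the nearest Hdac1 island was 52.9 kb away and the nearest Hdac2 island 87.5 kb away.

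**Figure D2:**
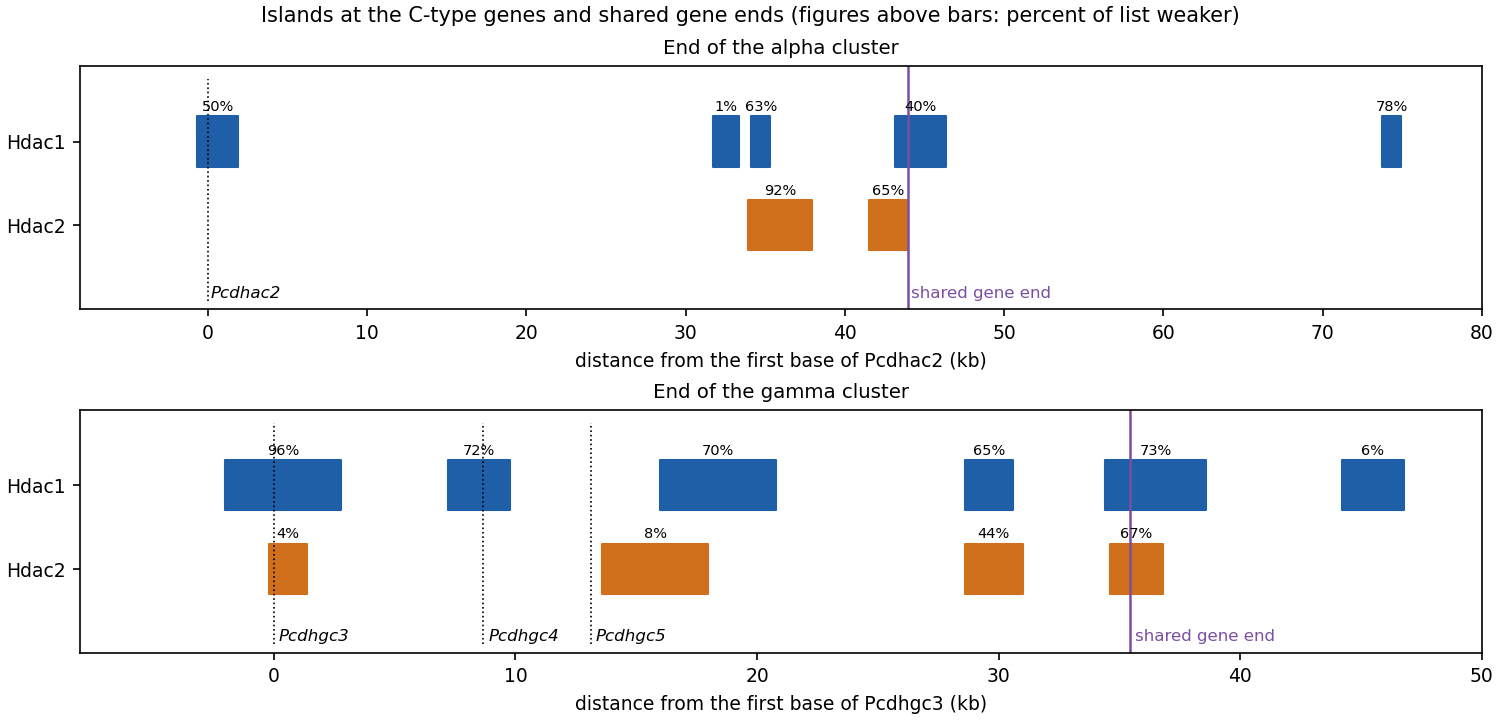
Islands at the ends of the alpha and gamma clusters, by distance in kb from the first base of Pcdhac2 and of Pcdhgc3. Bars are islands drawn to scale, with the percent of the library's list that is weaker above each, dotted lines are C-type gene starts and the solid line is the shared gene end. Hdac1 islands overlie the starts of Pcdhac2, Pcdhgc3 and Pcdhgc4, and both libraries have an island at each shared end.

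Both libraries had islands at the shared ends, where the constant exons lie. The 14 alpha genes end within 1240 bp of each other, and 4 distinct ends are annotated. There, an Hdac1 island of 3.2 kb (chr18:37186801-37190000, value 1.04e-12) and an Hdac2 island of 2.4 kb (chr18:37185201-37187600, value 5.7e-10) shared 0.8 kb. The 21 gamma genes end within 10 bp of each other. Over that end, an Hdac1 island of 4.2 kb (chr18:37840801-37845000, value 1.22e-39) held the whole of an Hdac2 island of 2.2 kb (chr18:37841001-37843200, value 2.98e-10). The gamma islands also reach within 1 kb of an end of the next gene, Diaph1, which encodes a formin that assembles actin filaments.

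The shared ends decide any count by genes. Counted at either end, 35 of the 57 genes had an Hdac1 island and 34 an Hdac2 island, against 60.7% and 31.7% of all protein-coding genes, and 71.1% and 36.5% of the 447 genes elsewhere on chromosome 18. Each of these genes has the island at its shared end, so the counts rest on 1 island per cluster and library. The exception among the alpha genes is Pcdha6, annotated to end farther along, which had Hdac1 and no Hdac2 within 1 kb. No beta gene had an island of either library at either end.

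Further islands lay inside the ends of the clusters, between the last C-type start and the shared gene end. In alpha, the strongest Hdac2 island of the locus measured 4.0 kb (chr18:37177601-37181600, value 8.14e-17, stronger than 92.5% of the Hdac2 list). It took in the whole of an Hdac1 island of 1.2 kb (chr18:37177801-37179000, value 2.19e-26, stronger than 63.2% of the Hdac1 list). A second Hdac1 island, of 1.6 kb, stood 0.6 kb before it with a value of 0.0105, among the weakest 0.9% of the list. In gamma, the islands chr18:37835001-37837000 for Hdac1 (2.0 kb, value 9.89e-28) and chr18:37835001-37837400 for Hdac2 (2.4 kb, value 6.15e-08) began at the same base and ended 400 bp apart.

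Beyond the alpha cluster, in the 76.1 kb before the beta genes, there was a single Hdac1 island (chr18:37217401-37218600, 1.2 kb). It lay within the long gene models Gm37013, Gm38666 and Gm38667, which run from alpha starts to the gamma end, and over no other protein-coding gene. Its value of 3.32e-48 was stronger than 77.9% of the list, while its width exceeded 15.8% of the list, so it was narrow and strong. The nearest Hdac2 island was 29.8 kb away. Enhancers of the clusters are known to lie among and beyond the alpha constant exons and beyond the gamma cluster. The sources used here do not give their positions, so no island was assigned to one.

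Islands were thus uneven within each cluster, as the covered bases show. The gamma cluster from 1 kb before Pcdhgc3 to its end (36.5 kb) was 39.1% covered by Hdac1 islands and 25.4% by Hdac2 islands. The rest of the gamma cluster, with 18 alternate gene starts over 143.6 kb, was 0.7% covered by Hdac1, through the edge of the Pcdhgc3 island, and 0% by Hdac2. The alpha cluster from 1 kb before Pcdhac2 on (46.2 kb) was 16.2% covered by Hdac1 and 13.8% by Hdac2, whereas the 212.4 kb before it were 0% covered by Hdac1 and 3.2% by Hdac2. These dividing points were chosen after the islands were seen. Undivided, the gamma cluster was 8.48% covered by Hdac1 and 5.15% by Hdac2, and the alpha cluster 2.9% and 5.1%. The beta cluster (256.4 kb) had no base under Hdac1 and 6.16% under Hdac2.

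**Figure D3:**
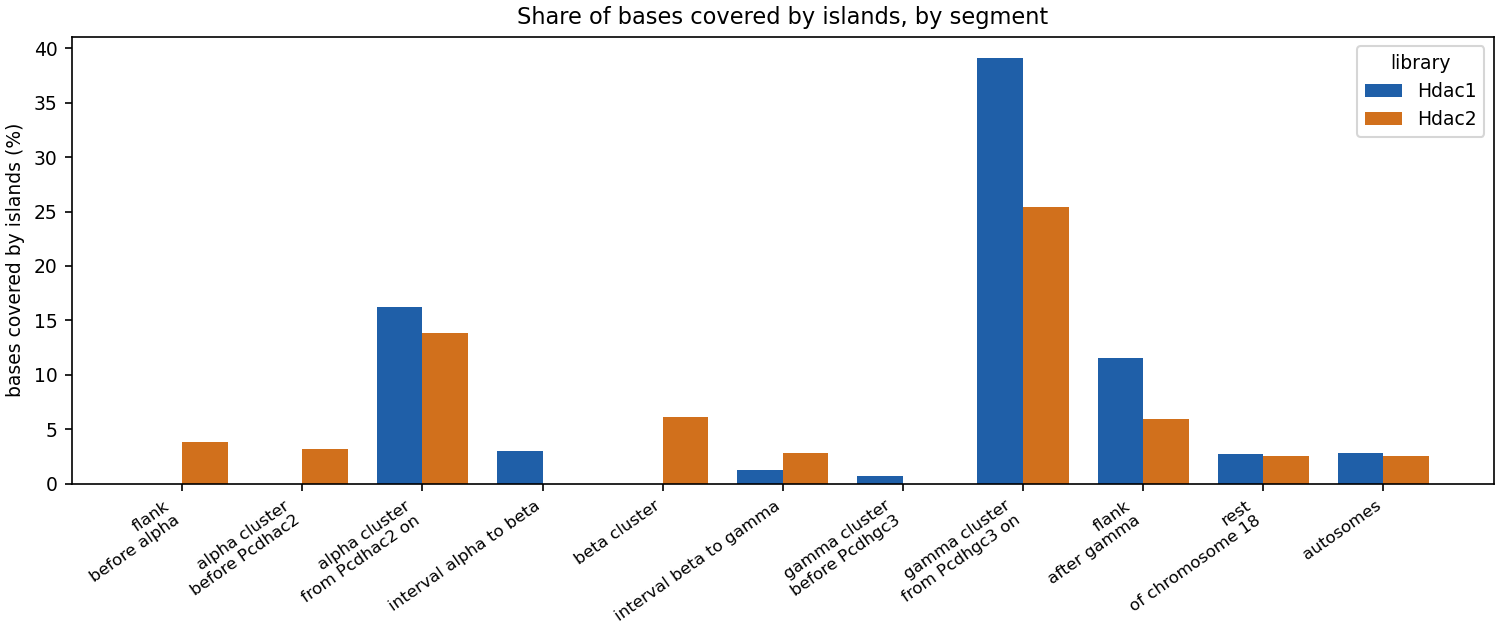
Share of bases covered by islands, in percent, for each segment of the locus, for the rest of chromosome 18 and for all autosomes, with Hdac1 left of Hdac2 (1 library each, no error bars). The end of the gamma cluster reaches 39.1% for Hdac1 and 25.4% for Hdac2, against 2.79% and 2.54% over the autosomes. The points that divide the alpha and gamma clusters were chosen after the islands were seen, so high coverage there is partly built in.

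Taken as a whole, the locus was not poor in islands. It held 13.5 Hdac1 islands per Mb, against 11.7 over the rest of chromosome 18 and 12.2 over the autosomes, and 12.6 Hdac2 islands per Mb, against 7.85 and 8.0. Hdac1 islands covered 3.45% of the locus, compared with 2.71% of the rest of the chromosome, and Hdac2 islands 4.68%, compared with 2.5%. In the upper 50% of each list by value, the covered share of the locus was 2.37% for Hdac1 and 2.68% for Hdac2. Coverage outside the locus was not computed in that setting, so 2.71% and 2.5% are no background for these values.

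The starts of the alternate and beta genes stood in long stretches with no Hdac1 island. One stretch of 424.2 kb, from 37218601 to 37642800, held the starts of all 22 beta genes. Of the 29676 gaps between neighbouring Hdac1 islands on the autosomes, 2.77% were as long or longer, and the median gap was 27.8 kb. Another, of 339.8 kb, held the starts of Pcdha1 to Pcdha12 and Pcdhac1, with 3.79% of gaps as long or longer. The 18 alternate gamma starts lay in a further stretch, of 159.8 kb, with 9.74% of gaps as long or longer. These shares count gaps and not bases. A long gap holds more bases than a short one, so the share of bases in gaps this long is higher and was not computed. The Hdac2 gaps over the same genes were closer to the usual ones of that list. Their lengths were between 68.6 and 189.6 kb where they held starts of alternate or beta genes, against a median of 67.8 kb.

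Distances from gene starts show the difference between the libraries by gene class. The median distance to the nearest Hdac1 island was 144.0 kb for alternate alpha genes (122.8 to 169.2 kb), 142.2 kb for beta genes (46.4 to 207.2 kb) and 51.3 kb for alternate gamma genes (17.2 to 78.7 kb). To the nearest Hdac2 island, it was 21.9 kb for alternate alpha genes (4.47 to 50.9 kb), 27.2 kb for beta genes (5.35 to 77.4 kb) and 57.4 kb for alternate gamma genes (27.6 to 85.8 kb). Over all genes with an annotated strand, the medians were 0 kb for Hdac1 and 22.9 kb for Hdac2. For Hdac2, the alternate alpha and beta genes were thus near the median of all genes, and in the Hdac1 library far from it. For each of these 12 alternate alpha genes the Hdac2 island was the nearer one. Genes of a class share the islands they are measured to.

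**Figure D4:**
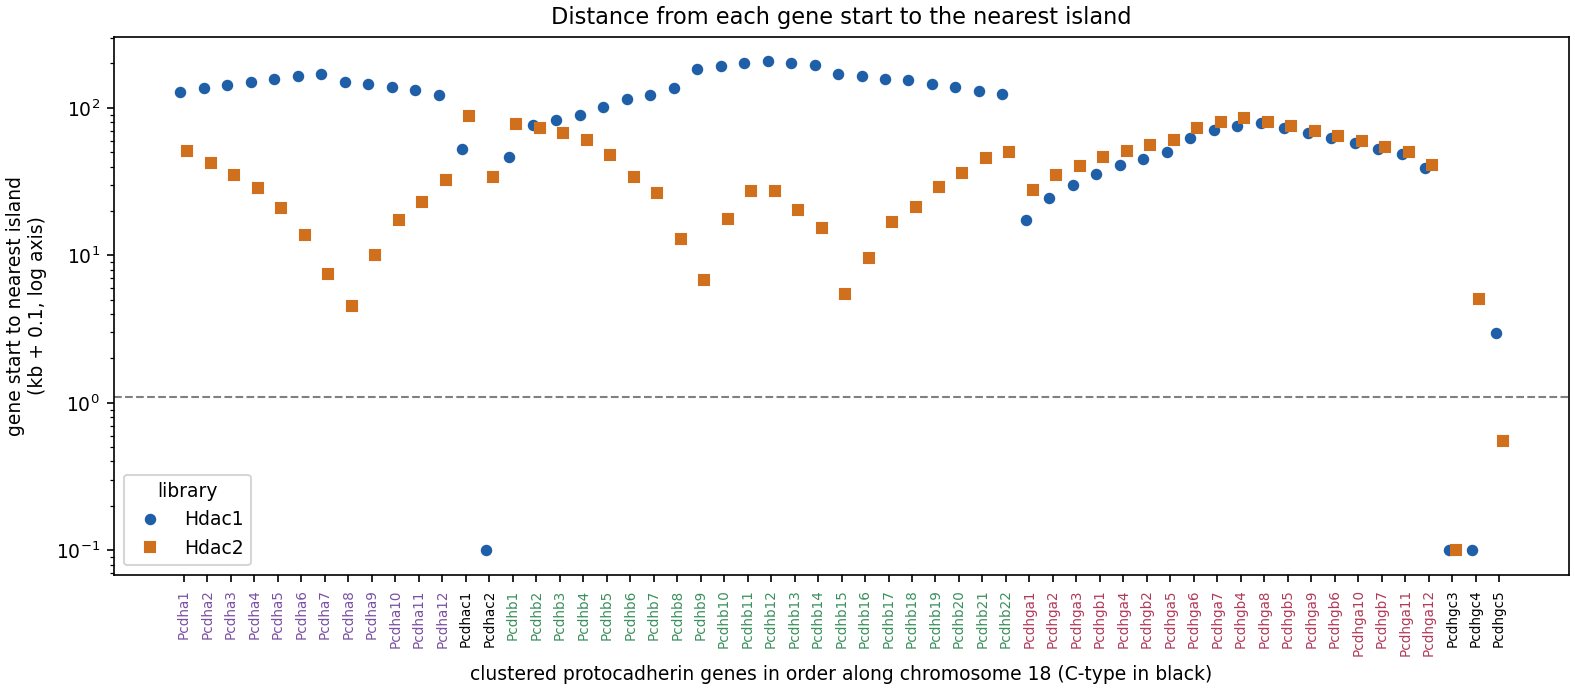
Distance from the start of each of the 57 genes to the nearest island, in kb plus 0.1 on a log axis, in order along chromosome 18. Circles are Hdac1 and squares Hdac2, the dashed line is the 1 kb window, and only starts of C-type genes, named in black, lie under it.

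The Hdac2 islands near the alternate and beta genes were broad and lay away from the gene starts. The one among the alternate alpha genes (chr18:36981201-36988000, 6.8 kb, value 3.43e-09) stood between the starts of Pcdha7 and Pcdha8, 4.47 kb from the start of Pcdha8, within the spans of Pcdha1 to Pcdha7 and of the annotated pseudogene Gm36858. In the beta cluster, the islands chr18:37368001-37371400 (3.4 kb, value 2.93e-10) and chr18:37387201-37394200 (7.0 kb, value 2.07e-14) fell in the gap between Pcdhb8 and Pcdhb9. The island of 7.0 kb was stronger than 87.8% of the Hdac2 list. Another beta island (chr18:37462801-37468200, 5.4 kb, value 8.4e-06) ended 5.35 kb before Pcdhb15. The nearest Hdac1 islands were 149.4 to 174.6 kb away from these 4 islands.

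Elsewhere in the locus, Hdac2 islands without Hdac1 lay in the flank before Pcdha1 (chr18:36857201-36861000, 3.8 kb) and before Slc25a2, a mitochondrial ornithine carrier gene (chr18:37630201-37634200, 4.0 kb). The 6 Hdac2 islands of the locus without Hdac1 were 3.4 to 7.0 kb wide (median 4.7 kb), and the 8 that overlapped Hdac1 were 1.4 to 4.4 kb wide (median 2.4 kb). The whole Hdac2 list had the same order, with medians of 3.8 kb for 8246 islands without Hdac1 and 2.2 kb for 12061 that overlapped it.

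The libraries shared their islands in the locus to an extent within the counting error of the whole lists. In the locus, 8 of 15 Hdac1 islands shared at least 1 bp with Hdac2 (53.3%, interval 30.1 to 75.2%), against 39.8% of all Hdac1 islands. Likewise 8 of 14 Hdac2 islands overlapped Hdac1 (57.1%, interval 32.6 to 78.6%), against 59.4% of all Hdac2 islands. Both intervals take in the share of the whole list. The ranks within the lists were far apart at several of the 8 shared stretches. Hdac1 had the higher rank at 5 of them, by 91.9 percentage points at Pcdhgc3, 72.1 at the far end of Diaph1, 62.4 at Pcdhgc5, 20.2 between Pcdhgc5 and the gamma end and 6.2 at that end, and Hdac2 at 3, by 29.3 and 25.1 points at the 2 stretches in alpha and 7.8 points inside Diaph1. In the upper 50% of both lists, the overlap was 22.2% of 9 Hdac1 islands and 28.6% of 7 Hdac2 islands. This setting leaves out the Hdac2 islands at Pcdhgc3 and Pcdhgc5. The share over all islands was not computed in it, so 39.8% and 59.4% are no background for these values.

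Of the 4 other genes of the locus, 3 had an Hdac1 island and 2 an Hdac2 island at an end, against 60.7% and 31.7% of all genes. Taf7, a subunit gene of the general transcription factor TFIID that lies between beta and gamma, had an Hdac1 island of 1.8 kb (chr18:37642801-37644600, value 1.87e-23) and its nearest Hdac2 island was 6.29 kb from an end. Its neighbour Slc25a2 had neither, the nearest being 4.08 kb away for Hdac1 and 3.18 kb for Hdac2. Diaph1 spans the flank after gamma. At its far end an Hdac1 island of 3.8 kb (chr18:37932201-37936000, value 3.56e-69) held an Hdac2 island of 3.2 kb (chr18:37932601-37935800, value 3.09e-05). That Hdac1 island reached within 1 kb of Hdac3, the gene of another class I deacetylase, which follows Diaph1. At the other end of Hdac3, beyond the 100 kb flank, lay a 3.6 kb Hdac1 island (6.62e-109) and a 2.6 kb Hdac2 island (7.78e-09). Inside Diaph1 there were 3 weaker Hdac1 islands, of 0.8 to 2.6 kb, and 1 Hdac2 island of 1.4 kb. The annotation also has 3 gene models that run from alpha starts to the gamma end, Gm37013, Gm38666 and Gm38667, with islands of both libraries at that end.

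Protocadherin genes outside the clusters are single genes, and islands were more frequent at their starts than at those of the clustered genes. Of 14 such genes, Hdac1 islands were at an end of 8 (57.1%, interval 32.6 to 78.6%) and Hdac2 islands of 6 (42.9%, interval 21.4 to 67.4%), near the 60.7% and 31.7% of all genes. Of the 11 with an annotated strand, 6 had Hdac1 and 5 had Hdac2 at the start, where 3 and 2 of the 57 clustered genes had them. At either end the clustered genes, through their shared ends, had 35 and 34 of 57. The difference was not tested. Pcdh7, an adhesion gene of the delta group, had a 7.2 kb Hdac1 island (1.42e-141) and a 6.2 kb Hdac2 island (1.22e-24). Pcdh1, on the same chromosome as the clusters, had 4.6 kb (1.17e-106) and 4.2 kb (1.31e-15). Pcdh18 had values of 2.19e-67 for Hdac1 and 8.34e-12 for Hdac2, and Pcdh8 3.3e-56 and 1.03e-13. Cdhr2 and the X-linked Pcdh19 had Hdac1 alone, and 6 genes had neither. The clustered C-type genes, at 3 and 2 of 5, are too few to set apart from these.

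Genes for factors known to act on the chromatin of the clusters mostly had islands of both libraries at an end, where 60.7% of all genes had Hdac1 and 31.7% had Hdac2. Of 21 genes, 18 had Hdac1 (85.7%, interval 65.4 to 95%) and 13 had Hdac2 (61.9%, interval 40.9 to 79.2%). Rest, the repressor of neuronal genes that also binds in the clusters, had an Hdac1 island with a value of 1.77e-283 and an Hdac2 island of 3.19e-14. Ctcf, whose protein loops promoters to enhancers, had 5.66e-229 for Hdac1 and 1.08e-59 for Hdac2. Smchd1, a silencer of the clusters in mouse, had 1.51e-187 and 2.37e-15, and the histone methyltransferase gene Ehmt2 had 5.14e-161 and 2.74e-05. Dnmt3b, which methylates the alternate promoters in mouse embryos, had 1.48e-84 and 2.83e-12. Genes with Hdac1 alone included Ehmt1, Zfp143 and the X-linked cohesin genes Stag2 and Smc1a. Dnmt3a, Nipbl and Stag1 had neither. In the upper 50% of the Hdac2 list, 7 of the 21 genes had Hdac2. The share over all genes was not computed in that setting, and 31.7% holds for the full list.

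Genes for partners of protocadherin proteins gave similar counts, 17 of 20 with Hdac1 (85.0%, interval 64.0 to 94.8%) and 12 with Hdac2 (60.0%, interval 38.7 to 78.1%), against the same 60.7% and 31.7% of all genes. Marcks, an actin-binding substrate of protein kinase C, had a 7.4 kb Hdac1 island (9.25e-240) and a 5.8 kb Hdac2 island (2.26e-29). Wnk1 had values of 2.14e-160 and 1.05e-10. Among the genes of the WAVE actin regulatory complex, Wasf1 (1.32e-158 and 1.09e-09) and Nckap1 (8.98e-124 and 2.99e-10) had both. So did Cyfip2 (4.05e-41 and 1.44e-10) and Brk1 (1.36e-27 and 0.00222) of the same complex. Wasf2, Abi1, Cyfip1, Cntnap2 and Nlgn1 had Hdac1 alone. Neither was at Ptk2b, Abi2 or Axin1, the gene of the partner of the Pcdhgc3 protein.

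In the histone clusters the gene ends carried islands more often, while the Hoxb genes were too few to tell for Hdac1. Of 10 Hoxb genes, 8 had an Hdac1 island and 8 an Hdac2 island at an end (interval 49.0 to 94.3% for each). Of the 53 clustered histone genes of chromosome 13, 51 had Hdac1 (interval 87.2 to 99.0%) and 47 had Hdac2 (interval 77.4 to 94.7%). The clustered protocadherin genes, through their shared ends, had 35 and 34 of 57, and all protein-coding genes 60.7% and 31.7%. The Hoxb interval takes in the protocadherin share for both libraries and the share of all genes for Hdac1. It lies above the share of all genes for Hdac2. Genes can share an island, so these counts are not counts of islands. Over the Hoxb cluster (173.9 kb) lay 5 Hdac1 and 13 Hdac2 islands, and over the span of the histone clusters (2219.2 kb) 62 and 50. The histone span runs from the first to the last histone gene with all that lies between, so its islands are not only at histone genes. Islands covered 60.6% of the Hoxb cluster for Hdac1 and 44.7% for Hdac2. For the whole histone span the shares were 8.36% and 6.66%. Neither span has flanks, and the protocadherin locus without its flanks was 2.95% covered by Hdac1 and 4.64% by Hdac2. With its flanks of 100 kb the shares were 3.45% and 4.68%. These are descriptions of the libraries, with no test of the difference.

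Occupancy does not measure expression, so the identity of the cells could not be checked by transcript levels. All 8 listed progenitor markers, Six2 and Cited1 among them, carried Hdac1 islands at an end, and 7 carried Hdac2 islands. For stroma markers the counts were 3 and 2 of 3, for ureteric bud markers 2 and 1 of 3, and for neuron markers 2 and 1 of 3, where 60.7% of all genes had Hdac1 and 31.7% had Hdac2. The part that other cells in the culture had in the islands was not tested. The variable exons of neighbouring protocadherin genes are similar in sequence, and the sources used here do not give how reads that match several of them were placed. The part of this in the absence of islands at alternate and beta starts was not tested.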

How the data were processed

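Chromatin immunoprecipitation and sequencing gave 1 deposited island list for Hdac1 and 1 for Hdac2, from nephron progenitor cells. The submitters' processing notes name build mm10 and the tools BWA 0.7.5a, SICER, SAMtools 1.3.1, FastQC and bedtools 2.17, without their roles. The sources used here do not give settings, the background library or any pooling. Per the labels' protocols, libraries were made from 500 pg of DNA and amplified for at least 12 cycles, so reads are not all independent molecules. The deposited value of each island is a p-value or a q-value, and the files do not say which. Island edges lie on a grid of 200 bp, and neighbouring islands are at least 800 bp apart. Positions are given 1-based.

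Genes are those of RefSeq for GRCm38.p6, the assembly of mm10. That table has no strand on chromosome 18. The start of an alpha or gamma gene was taken as the end it does not share with its cluster, and for beta genes as the lower coordinate, as for their neighbours. Windows of 1 kb either side and overlaps of at least 1 bp were counted. "Percent of list weaker" is the share of a library's islands with a higher value. Chromosome lengths were taken from the first to the last gene or island. No sequence of the locus is reported here.

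Genes named are those with islands at their starts, the genes nearest to islands, neighbour genes and, in the lists, those with the 4 lowest Hdac1 values and up to 4 with a single library. Dnmt3b, Nlgn1, Cyfip2, Brk1 and genes without islands were named after their values were seen. Some individual results are not reported here. The members and lists were chosen with earlier results of these data known. Counting was tried on simulated lists, in which all 200 genes given an island were recovered in each library. The islands were placed at the starts that were then searched, so this checks the counting and not missed or false islands. The work used scipy 1.17.1, pandas 2.3.3 and numpy 2.4.6 under Python 3.11.15, with figures from matplotlib 3.10.9. Alternatives were other windows, flanks and overlaps, joined islands, equal list lengths and the upper 50% of each list.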

Additional observations from a re-analysis of the deposited data

How the results depend on the processing

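Of 69 alternative values, 60 stayed within 1.5 times the value reported or, for shares, within its interval. In the upper 50% of each list, the locus held 9 Hdac1 and 7 Hdac2 islands, Hdac2 covered 2.68% of it, and the overlap was 22.2% of Hdac1 and 28.6% of Hdac2 islands. The same setting left 2 gene starts with Hdac1, without Pcdhac2, and 0 with Hdac2, and 7 genes with Hdac2 among the factors of the clusters' chromatin. Fewer islands enter this setting by construction. Shares over all islands and over all genes, and coverage outside the locus, were computed for the main setting only. A flank of 200 kb raised the Hdac1 islands to 25, and a 5 kb window raised the gene starts with Hdac2 to 4 by adding Pcdha8 and Pcdhgc4. No paired analysis was possible because there was 1 library per antibody, so leaving out a replicate was not possible either. Depth is unknown, so a missing island says that none was called, not that the deacetylase was absent.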
